A study of Mus musculus with 11 samples.

Results

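Hearts of Mertk knockout (Mertk-KO) mice were compared with those of wild-type (WT) mice, 5 of the 11 whole-heart RNA libraries of a study on cardiac macrophages. Both groups were taken as the labels name them: 2 Mertk-KO libraries and 3 WT libraries, described across all genes. All hearts came from male mice aged 8 to 12 weeks, and polyadenylated RNA was sequenced from the whole organ. The WT mice had received diphtheria toxin at 0.01 µg per g of body weight, 3 times a week for 3 weeks. For the Mertk-KO mice the labels give the genotype alone, with neither the allele nor any toxin, so that the effects of genotype and toxin cannot be told apart. The remaining libraries enter as a shared measure of spread and for side-by-side levels: 3 from mice lacking both liver X receptors (LXR-DKO) and 3 from CD169-DTR mice that received the same toxin and had their macrophages depleted for 21 days (Macrophage-depleted). Nothing in the labels says that the libraries of a group came from separate mice, so the p-values reflect how much these libraries vary, and that variation may be technical.

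Mertk is a receptor tyrosine kinase of the TAM family, named after its members Tyro3, Axl and Mertk. Macrophages use it to recognise dying cells: the bridging proteins Gas6 and Pros1 bind phosphatidylserine on the surface of the dying cell and dock it on the receptor, which drives engulfment and damps inflammatory and interferon signalling. In the heart, resident macrophages carry Mertk and take up dead cells and debris shed by cardiomyocytes, mitochondria among them.

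The gene named in the labels was read first. Mertk lies on chromosome 2 (GRCm38, positions 128698956 to 128802894). It had 131, 147 and 130 normalised counts in WT 1, WT 2 and WT 3, and 75.7 and 89.4 in Mertk-KO 1 and Mertk-KO 2. A normalised count is the number of reads of a gene scaled to a library of mean effective size. Both knockout libraries lay below every WT library, but neither was near 0. The log2 difference was -0.71 with a standard error (SE) of 0.191 and a 95% interval from -1.13 to -0.30 (limma, adjusted p = 0.0408), and it did not pass in 13 of 23 other settings, among them those without WT 1, WT 2, WT 3 or Mertk-KO 1 (adjusted p from 0.0883 to 0.121). LXR-DKO and Macrophage-depleted hearts averaged 98.9 and 98.0 normalised counts of Mertk. The labels do not say which part of the gene the allele removes, so the level summed over the whole gene does not check the genotype by itself.

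The other TAM genes did not pass the test. Tyro3, also on chromosome 2 and 8.90 Mb from the start of Mertk, had 36.2, 43.0 and 30.4 normalised counts in WT hearts and 25.2 and 25.9 in Mertk-KO hearts. Its groups did not overlap, as was the case for 42.6% of all genes tested. The log2 difference of Tyro3 was -0.49 with an interval from -0.98 to 0.01 (adjusted p = 0.186 by limma). For Axl, the difference was 0.04 with an interval from -0.30 to 0.38. The ligand genes were measured more tightly: Gas6 differed by 0.09 (interval from -0.12 to 0.29) and Pros1 by -0.15 (interval from -0.45 to 0.15). Per unit of transcript length, as TPM, a level per transcript length set by the authors, Gas6 was the most abundant of the family in WT hearts at a mean of 58.3, followed by Axl at 23.9, Pros1 at 9.73, Mertk at 2.81 and Tyro3 at 1.07. In TPM the groups of Tyro3 overlapped, at 0.766, 1.46 and 0.989 in WT hearts against 0.890 and 0.526 in Mertk-KO hearts.

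Receptors and bridging proteins that recognise dying cells apart from the TAM family were tested for 17 genes, and 0 passed, beside 9.27% of all genes. Their median log2 difference was 0.19, beside -0.01 over all 13884 genes tested. Mfge8, which bridges phosphatidylserine to integrins, had 1411, 1440 and 1423 normalised counts in WT hearts and 1966 and 1561 in Mertk-KO hearts. Both knockout values lay above every WT value, and the adjusted p of limma was 0.0797. Of 25 genes for engulfment and phagosome maturation, 1 fell, Vav3, beside 5.89% of all genes falling. Vav3 had 101, 139 and 132 normalised counts in WT hearts against 74.1 and 74.3 in Mertk-KO hearts (log2 difference -0.72, SE 0.174, adjusted p = 0.0308 by limma). The other 24 did not pass, nor did any of the 5 tested genes for do-not-eat-me signals, which protect living cells from engulfment.

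Across all genes, 1287 of 13884 tested genes (9.27%) passed an adjusted p of 0.05 in limma, 469 rising (3.38%) and 818 falling (5.89%) in Mertk-KO hearts. Most of the changes were small: 39 of the genes that rose and 181 of those that fell moved more than 2-fold. Libraries of the groups did not overlap for 42.6% of all tested genes. The number depended on which libraries entered the fit. With only the Mertk-KO and WT libraries fitted, 1 gene passed, Cd59a, while 3280 had an unadjusted p below 0.05. With libraries weighted by their agreement, 12 passed, and 378 did in the authors' TPM values. Leaving out WT 1, WT 2 or WT 3 left 164, 167 and 70, so most calls below rest on all 3 WT libraries, and leaving out Mertk-KO 2 gave 2399. In all 11 fits that leave out 1 library, 10 of the genes that rose and 52 of those that fell passed.

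**Figure D1:**
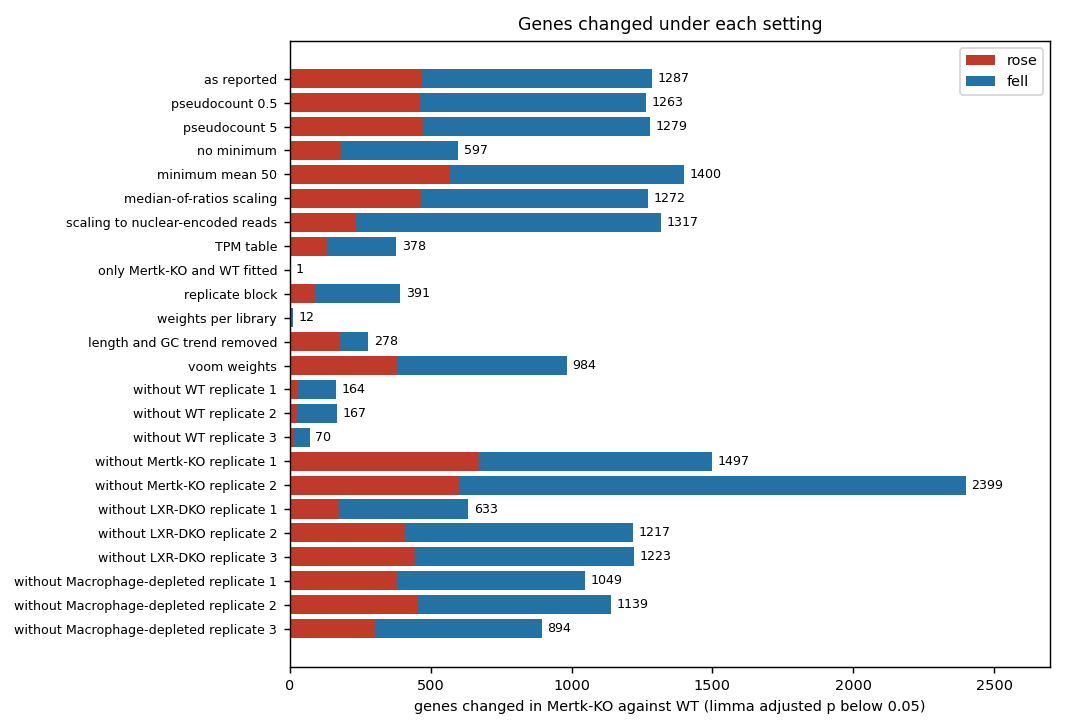
Number of genes that rose (left part of each bar, red) and fell (right part, blue) in Mertk-KO against WT hearts under the main setting and each alternative, as counts of genes past an adjusted p of 0.05 in limma. The total runs from 1 gene, with only these 2 groups fitted, to 2399, without Mertk-KO 2.

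The knockout libraries resembled each other less than the WT libraries did. Their correlation over log2 values was 0.959, the lowest of any pair within a group, against 0.982 to 0.986 for pairs of WT libraries. Between Mertk-KO 1 and Mertk-KO 2, 8.89% of tested genes differed more than 2-fold, against 2.08% to 3.95% in the pairs of the other groups. Estimated reads were 11794200 and 15368000 in these libraries and 14295200 to 14860000 in WT hearts. A floor of 3 reads corresponds to 2.12 to 4.22 normalised counts over the 11 libraries. Reads of the mitochondrial genome made up 31.4% to 36.5%, and the 26 sarcomere genes summed to 1025000 to 1308500 normalised counts, so every library carried a strong cardiomyocyte signal.

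A single gene passed under each of the 23 alternatives. Cd59a encodes a membrane protein that blocks assembly of the complement attack complex, and it lies on chromosome 2, 24.6 Mb from Mertk. It had 991, 924 and 922 normalised counts in WT hearts, and 352 and 348 in Mertk-KO hearts. The knockout libraries were both far below every WT library and close to each other. Its log2 difference was -1.43 (SE 0.0995, adjusted p = 8.86e-05 by limma), and the largest adjusted p under any alternative was 0.0245. Side by side, LXR-DKO hearts averaged 333 and Macrophage-depleted hearts 603 normalised counts of Cd59a, in comparisons that share the WT libraries.

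In all, 60 genes passed in at least 20 of the 23 alternatives, Cd59a among them, and some of the others are given here. Gchfr, which encodes the feedback regulator of the enzyme that starts tetrahydrobiopterin synthesis, had 30.8, 31.7 and 25.1 normalised counts in WT hearts and 108 and 110 in Mertk-KO hearts (log2 difference 1.87, SE 0.188, adjusted p = 0.0018). Gm14085, a predicted gene beside Gatm, was near the lower limit of measurement in WT hearts, at 9.41, 9.92 and 4.40, and reached 98.7 and 148 in Mertk-KO hearts (log2 difference 3.84, and 1.67 in the TPM table). LXR-DKO hearts averaged 102 for Gchfr and 113 for Gm14085, against 64.4 and 60.5 in Macrophage-depleted hearts. The remaining genes of this kind were chosen after their values were seen. Zfp445, a zinc finger protein that guards genomic imprints, had 569, 502 and 588 normalised counts in WT hearts and 226 and 177 in Mertk-KO hearts (log2 difference -1.46). Ppp1r9a, which encodes the actin-binding protein neurabin, had 510, 484 and 521 against 211 and 240. Nfat5, the transcription factor of the response to osmotic stress, had 1112, 1133 and 1104 against 591 and 624 (-0.88), a difference of -0.28 once the trend with transcript length and GC content was removed (adjusted p = 0.0752 by limma). For all of these genes the knockout libraries lay on the same side of every WT library.

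**Figure D2:**
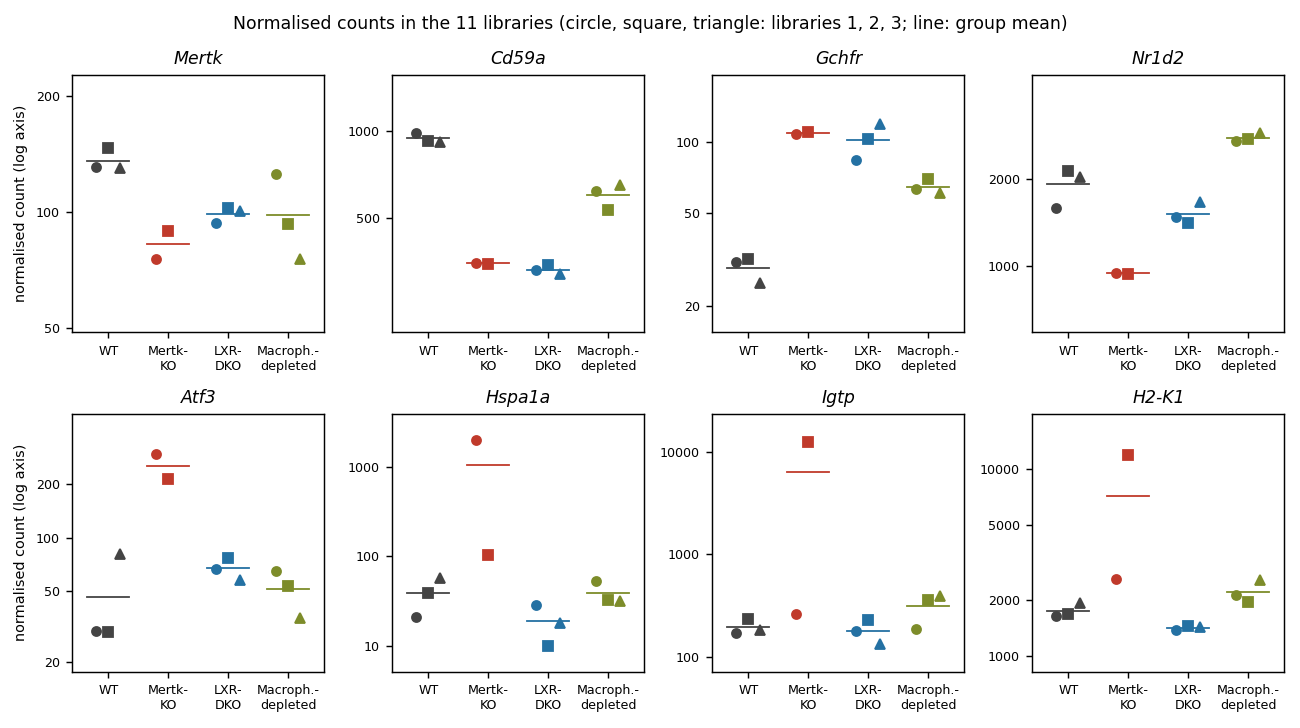
Normalised counts of 8 genes in all 11 libraries on a log axis, 1 panel per gene, with libraries 1, 2 and 3 of a group as circle, square and triangle and the group mean as a line. Mertk, Cd59a, Gchfr and Nr1d2 have both Mertk-KO libraries at like levels, while Hspa1a is far higher in Mertk-KO 1 and Igtp and H2-K1 are far higher in Mertk-KO 2.

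Several genes that rose encode proteins of signalling. Apold1, an early response gene of the endothelium, had 94.7, 68.6 and 115 normalised counts in WT hearts and 291 and 246 in Mertk-KO hearts (log2 difference 1.55, SE 0.239, adjusted p = 0.00973 by limma). Egln3, a prolyl hydroxylase that marks hypoxia-inducible factors for destruction, had 920, 765 and 933 against 1422 and 1563 (0.78). Of the 12 hypoxia-inducible genes tested it was the one that passed, a share near the 9.27% of all genes. Sik1, a salt-inducible kinase, had 269, 239 and 444 in WT hearts, 1810 in Mertk-KO 1 and 713 in Mertk-KO 2 (1.89). All 3 genes were higher in both knockout libraries than in any WT library, and for Sik1 the knockout libraries differed by more than the WT libraries did. Prkg1, the cyclic GMP-dependent kinase, chosen after its values were seen, fell from 153, 131 and 132 normalised counts to 63.7 and 42.0 (-1.40), but did not pass in the TPM table (-0.68, adjusted p = 0.121).

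A larger share of the genes near Mertk on chromosome 2 passed than elsewhere. As background, a knockout allele is often carried with a stretch of flanking chromosome from the strain in which it was made, and the strain of each group is not among the labels used here. Of 190 tested genes that start within 10 Mb of the start of Mertk, 35 passed (18.4%), 12 rising and 23 falling. Mertk itself is counted in the 190 and among those that fell. Along the remainder of chromosome 2 the share was 88 of 918 (9.59%), and on the other chromosomes 1164 of 12776 (9.11%). Once the trend with transcript length and GC content was removed, the shares were 6.84%, 2.07% and 1.93%. The part of strain differences in these shares was not tested.

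The 35 genes did not share a direction, and several were far apart in function. Prnp, the prion protein, had 1662, 1751 and 1589 normalised counts in WT hearts and 2975 and 2554 in Mertk-KO hearts (log2 difference 0.73, SE 0.101, adjusted p = 0.00881 by limma). Fahd2a, 1.26 Mb from Mertk, had 228, 271 and 244 against 455 and 409 (0.80). Capn3, a muscle calpain, had 25.5, 28.7 and 24.1 against 60.9 and 72.0 (1.31), but did not pass in the TPM table (0.38, adjusted p = 0.388). The knockout libraries stood above every WT library for each. Among those that fell, Casc4 had 207, 222 and 164 normalised counts against 76.1 and 79.7 (-1.32). Snap23, a membrane fusion protein of the SNARE family, had 707, 675 and 746 against 360 and 470 (-0.78), and Mga, a MAX-binding transcription factor, had 694, 676 and 686 against 264 and 397 (-1.08, and -0.45 with the length and GC trend removed, adjusted p = 0.0538). Prnp, Fahd2a, Casc4, Snap23 and Mga each passed in 21 of 23 alternatives. Hypk, which overlaps Serf2 in the annotation, fell by 0.80 in this table but was 0.71 higher in the TPM table (adjusted p = 0.124), and the cause was not tested. LXR-DKO hearts averaged 73.3 normalised counts of Capn3, 2049 of Prnp and 113 of Casc4, values listed beside those of Mertk-KO hearts since both comparisons use the same WT libraries.

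**Figure D3:**
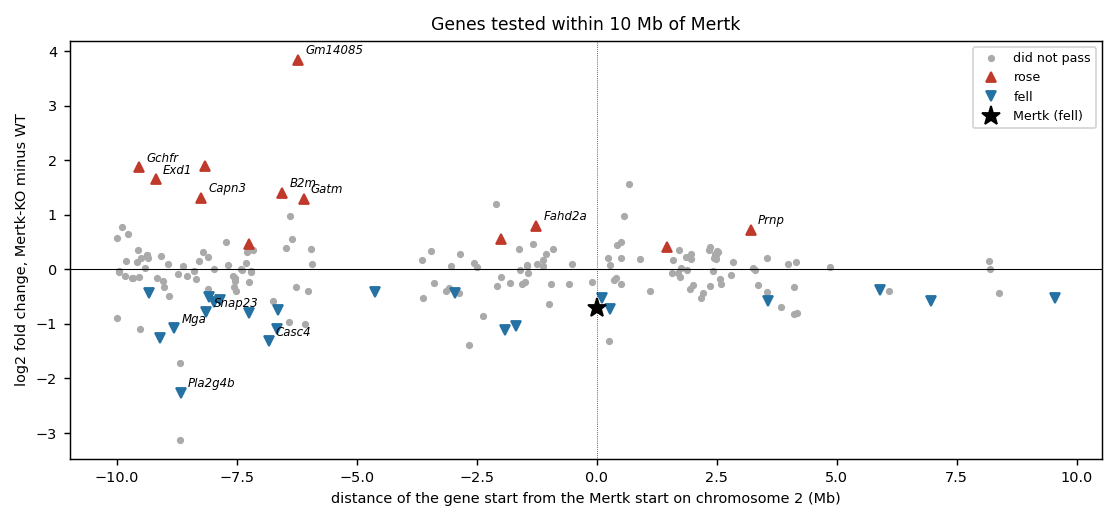
Log2 difference (Mertk-KO minus WT) of each tested gene within 10 Mb of Mertk against its distance in Mb from the start of Mertk, with upward triangles for genes that rose, downward triangles for those that fell, a star for Mertk and grey points for the rest. In all, 35 of 190 genes passed (12 rose and 23 fell), and the points scatter on both sides of 0.

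A large immune difference was found in 1 knockout library. Of 29 interferon-inducible genes tested, 28 had a higher mean in Mertk-KO hearts, beside 6706 of all 13884 tested genes. Their median log2 difference was 1.06, but 3 rose by the test (Tgtp1, Bst2 and Ifi27l2a), beside 3.38% of all genes rising. In Mertk-KO 2 all 29 lay above every WT library, against 36.5% of all genes tested, and their median was 1.84 above the WT mean. In Mertk-KO 1 the corresponding count was 12 of 29, against 36.7% of all genes, with 11 of 29 below every WT library and a median of 0.05. Summed over the list, WT 1, WT 2 and WT 3 had 5847, 6965 and 6522 normalised counts, Mertk-KO 1 had 6218, within that range, and Mertk-KO 2 had 69236. With Mertk-KO 2 as the sole knockout library, its spread taken to be like that of the other groups, 27 of the 29 rose, whereas with Mertk-KO 1 alone 1 rose and 3 fell. Without WT 1, WT 2 or WT 3 the count that rose was 0, 1 and 0.

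Genes that carried much of this sum encode GTPases of cell-autonomous defence. The following members were chosen after their values were seen. Igtp, an immunity-related GTPase, had 171, 233 and 184 normalised counts in WT hearts, 264 in Mertk-KO 1 and 12462 in Mertk-KO 2 (adjusted p = 0.076 by limma). Irgm2, of the same family, had 331, 408 and 354 in WT hearts, then 491 and 7521, and the gene models of Igtp and Irgm2 overlap on chromosome 11, so the division of reads between them is uncertain. Gbp6, a guanylate-binding protein, had 461, 473 and 421 in WT hearts, then 421 and 7788. Against the WT mean, Mertk-KO 2 was 63.6-fold higher for Igtp, 20.6-fold for Irgm2 and 17.2-fold for Gbp6. Mertk-KO 1 was 1.35-fold, 1.35-fold and 0.933-fold that mean. Other members were clearly lower in Mertk-KO 1: Iigp1 was 0.401-fold the WT mean, Gbp3 0.75-fold and Gbp4 0.751-fold. In Mertk-KO 2 these were 18.5-fold, 6.56-fold and 6.32-fold that mean. With 2 knockout libraries so far apart, none of these genes passed the test.

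Some genes of antigen presentation were raised in both knockout libraries and passed. H2-K1, a classical class I molecule, had 1637, 1670 and 1925 normalised counts in WT hearts, 2593 in Mertk-KO 1 and 11851 in Mertk-KO 2 (log2 difference 1.67, SE 0.424, adjusted p = 0.0346 by limma). H2-D1 had 1783, 1957 and 2061 against 3002 and 8183 (1.36, adjusted p = 0.022). B2m, the light chain of class I molecules and also a gene within 10 Mb of Mertk, had 2122, 2415 and 2333 against 2966 and 12358 (1.40, adjusted p = 0.0469). All 3 were above the WT range in both knockout libraries, by a wide margin in Mertk-KO 2. Irf1, a transcription factor of this response that was chosen after its values were seen, also rose, from 269, 323 and 356 normalised counts to 466 and 1309 (1.31, adjusted p = 0.0281). Ifi27l2a was the interferon-inducible gene with the closest knockout libraries: 90.4, 125 and 96.4 in WT hearts against 194 and 183 (0.87, adjusted p = 0.0228). Genes of the class I family are alike in sequence, and reads may have been shared among them.

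Promoters of the genes behind this difference are printed because they carry a common motif. The interferon-stimulated response element was searched as GAAA, any 2 bases and GAAA again, on both strands, from 250 bases before to 50 bases after the start of transcription in RefSeq (GRCm38.p6). It was found in 16 of 22 interferon-inducible genes with a promoter in the table (72.7%), beside 3.81% of the 10408 tested genes and 3.99% of all 27025 genes with a promoter. For the class II genes it was 0 of 4. In the sequences below, each 5′ to 3′ on the strand of the gene, the match is in capitals. Igtp is at chr11:58199306-58199605 (plus strand, match 34 bases before the start), Irgm2 at chr11:58214727-58215026 (plus strand, 64 bases before) and B2m at chr2:122147437-122147736 (plus strand, 139 bases before).
Igtp: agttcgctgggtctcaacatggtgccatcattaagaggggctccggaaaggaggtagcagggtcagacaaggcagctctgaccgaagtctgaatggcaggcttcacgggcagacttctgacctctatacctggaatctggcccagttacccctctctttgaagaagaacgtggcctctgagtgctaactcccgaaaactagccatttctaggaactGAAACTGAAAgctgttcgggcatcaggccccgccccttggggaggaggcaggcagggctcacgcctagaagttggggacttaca
Irgm2: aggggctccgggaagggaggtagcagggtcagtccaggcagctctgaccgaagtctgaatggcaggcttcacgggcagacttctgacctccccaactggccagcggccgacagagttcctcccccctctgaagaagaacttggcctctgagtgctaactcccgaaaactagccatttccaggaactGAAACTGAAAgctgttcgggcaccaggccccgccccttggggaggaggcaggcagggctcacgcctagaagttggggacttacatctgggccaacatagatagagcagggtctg
B2m: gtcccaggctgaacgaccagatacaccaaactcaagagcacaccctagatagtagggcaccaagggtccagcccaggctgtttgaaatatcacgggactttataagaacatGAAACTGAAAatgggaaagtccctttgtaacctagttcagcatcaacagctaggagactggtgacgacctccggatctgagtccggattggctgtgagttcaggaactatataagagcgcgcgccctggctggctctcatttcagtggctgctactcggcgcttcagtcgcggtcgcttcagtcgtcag
The matched letters are the same in all 3 promoters. The Igtp and Irgm2 windows are nearly alike in long stretches on both sides of the match, so their matches are not independent occurrences. No match was found at either listed start of H2-K1.

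Class II antigen presentation and macrophage markers differed in the same library. Of 7 class II genes, 0 passed, and their medians were 0.31 above the WT mean in Mertk-KO 1 and 2.32 in Mertk-KO 2, where 7 of 7 lay above every WT library, against 36.5% of all genes. Their summed level was 2529 to 3106 normalised counts in WT hearts, 3607 in Mertk-KO 1 and 14321 in Mertk-KO 2. H2-Ab1, a class II chain chosen after its values were seen, had 365, 427 and 452 in WT hearts, then 471 and 2289. Among 20 markers shared by all macrophages, 0 passed. Their summed level was 4436 to 5410 in WT hearts, 5640 in Mertk-KO 1 and 8927 in Mertk-KO 2, where 18 of 20 lay above every WT library, against 10 of 20 in Mertk-KO 1, beside 36.5% and 36.7% of all genes in the same libraries.

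Markers of resident cardiac macrophages did not follow. Their sum was 4180 to 4349 normalised counts in WT hearts, 4407 in Mertk-KO 1 and 4231 in Mertk-KO 2, and 0 of 14 passed. Medians over the 14 lay 0.08 and 0.06 above the WT mean in Mertk-KO 1 and Mertk-KO 2. Macrophage-depleted libraries 1 to 3 had medians of -0.67, -0.87 and -2.89, with sums of 3600, 3108 and 2153, so the sum follows these cells only in part. The markers of T and NK cells summed to 156 to 171 in WT hearts, 172 in Mertk-KO 1 and 281 in Mertk-KO 2, and neither of the 2 markers abundant enough to test passed. None of the listed macrophage, T or NK cell markers was without reads in both knockout libraries. Fcgr4, an activating Fc receptor of monocytes and macrophages, rose from 2.13, 7.17 and 7.34 normalised counts to 15.9 and 50.6 (log2 difference 2.31, adjusted p = 0.0421 by limma). It was the 1 of 11 genes for Fc receptors and their signalling that passed, a share near the 9.27% of all genes. In whole-heart RNA, more cells of a type and more RNA per cell cannot be told apart, and the part these cells play in the interferon values was not tested.

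Heat shock genes were raised in both knockout libraries, most in Mertk-KO 1. Of 25 cytosolic heat shock genes tested, 11 rose and 1 fell, beside 3.38% of all genes rising, and their median log2 difference was 0.37, with 0.52 in Mertk-KO 1 and 0.36 in Mertk-KO 2. With the trend of length and GC content removed 6 rose. Without WT 1, WT 2 or WT 3 the count was 1, 1 and 0, and without Mertk-KO 1 or Mertk-KO 2 it was 4 and 15. The inducible Hsp70 genes showed the greatest range. Hspa1a had 21.2, 39.0 and 57.4 normalised counts in WT hearts, 2007 in Mertk-KO 1 and 105 in Mertk-KO 2 (log2 difference 3.63, SE 0.903, adjusted p = 0.0329 by limma). Hspa1b had 37.8, 19.7 and 43.2 in WT hearts, then 1995 and 75.4 (3.57, adjusted p = 0.0376). Mertk-KO 1 was 51.2-fold above the WT mean for Hspa1a and 59.4-fold for Hspa1b, and Mertk-KO 2 was 2.68-fold and 2.25-fold above it. These genes are near-identical copies, so the division of reads between them is uncertain.

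Constitutive chaperones and small heat shock proteins moved less. Hspa8, the constitutive Hsc70, had 13737, 15186 and 14869 normalised counts in WT hearts and 25234 and 19438 in Mertk-KO hearts (log2 difference 0.60, SE 0.128, adjusted p = 0.0216 by limma). Hspb1 had 1639, 1404 and 1475 against 2997 and 2261 (0.79). Cryab, the small heat shock protein that protects desmin and titin in cardiomyocytes, had 12821, 12721 and 12904 against 18417 and 17458 (0.48). Each lay above the WT range in both knockout libraries. Hspb6, Hspb8, Dnaja1, Hsp90aa1 and Hsph1 also rose. So did Dnajb1, a co-chaperone of Hsp70, unevenly: it had 159, 142 and 183 in WT hearts, 848 in Mertk-KO 1 and 262 in Mertk-KO 2 (1.55). Hspa4l, of the Hsp110 family, fell from 921, 911 and 938 to 668 and 751 (-0.38), but was 0.26 higher once the length and GC trend was removed.

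The promoters of the inducible Hsp70 pair are printed for the heat shock element they share. It was searched as GAANNTTC or TTCNNGAA, forms that may overlap each other, on both strands of the same window, and 10 of 19 heat shock genes with a promoter in the table held a match (52.6%), beside 14.1% of the 10408 tested genes. Hspa1a is at chr17:34972107-34972406 and Hspa1b at chr17:34959189-34959488, both on the minus strand, each with 1 match in capitals 104 bases before the start of transcription.
Hspa1a: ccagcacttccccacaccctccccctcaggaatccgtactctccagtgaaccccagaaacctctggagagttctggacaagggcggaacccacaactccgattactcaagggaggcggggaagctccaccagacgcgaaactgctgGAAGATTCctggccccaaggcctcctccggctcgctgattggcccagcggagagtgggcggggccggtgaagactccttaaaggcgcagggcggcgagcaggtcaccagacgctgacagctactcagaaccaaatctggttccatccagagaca
Hspa1b: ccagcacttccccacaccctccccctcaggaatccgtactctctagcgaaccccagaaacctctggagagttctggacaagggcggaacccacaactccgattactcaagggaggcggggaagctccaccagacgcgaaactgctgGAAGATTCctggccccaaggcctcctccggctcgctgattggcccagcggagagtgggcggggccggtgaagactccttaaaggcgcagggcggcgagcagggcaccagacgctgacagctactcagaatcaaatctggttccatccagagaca
Over the 300 bases the 2 promoters differ at 4, an identity of 98.7%. No match was found in the windows of Dnajb1.

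Immediate early genes, which are transcribed within minutes of a stimulus, were higher in both knockout libraries. Of 24 tested, 5 rose (Atf3, Klf2, Nr4a1, Klf4 and Jun) and 0 fell, beside 3.38% of all genes rising, with a median log2 difference of 0.65. With the length and GC trend removed 2 rose, and 1 of 21 did in the TPM table. Without WT 1 or WT 2 1 rose, without WT 3 4 did, and without Mertk-KO 1 or Mertk-KO 2 the count was 1 and 7. Atf3, a stress-induced transcription factor, had 29.8, 29.7 and 80.7 normalised counts in WT hearts and 296 and 213 in Mertk-KO hearts (log2 difference 2.57, SE 0.39, adjusted p = 0.00973 by limma), and it passed in 21 of 23 alternatives. Nr4a1, an orphan nuclear receptor, had 197, 85.0 and 809 in WT hearts against 1367 and 1398 (2.53, adjusted p = 0.0447). The WT libraries were themselves wide for these genes, WT 3 being the highest for both. Jun had 660, 581 and 861 in WT hearts, then 1998 and 865. Nr4a3, chosen after its values were seen, had 20.2, 25.6 and 24.1 in WT hearts, 223 in Mertk-KO 1 and 15.9 in Mertk-KO 2, on opposite sides of the WT range (adjusted p = 0.258).

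**Figure D4:**
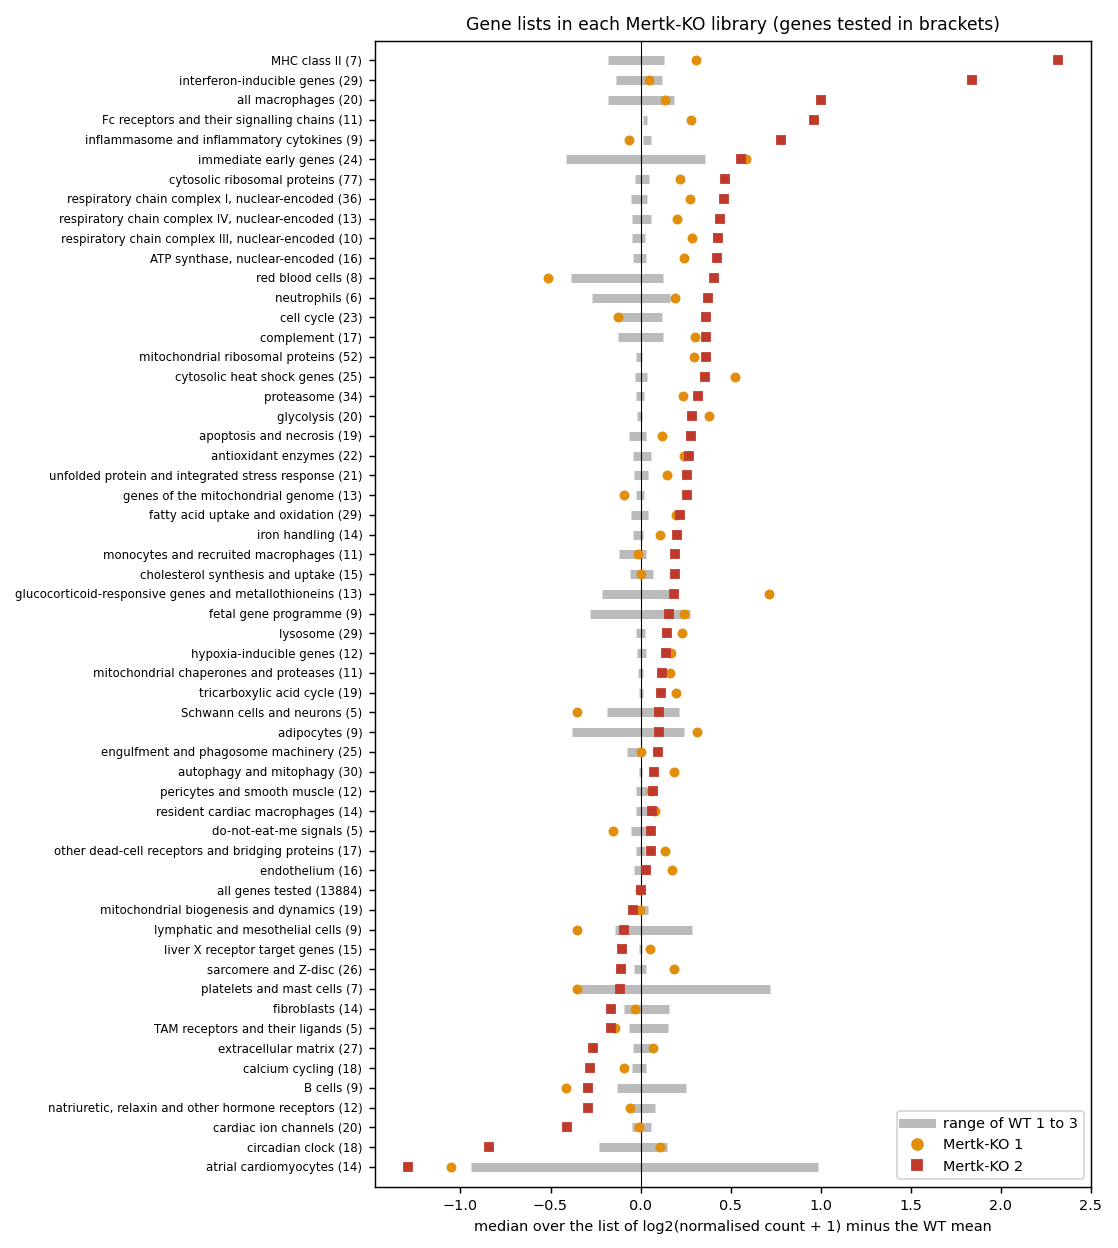
Median log2 difference from the WT mean over each gene list, for Mertk-KO 1 (circle) and Mertk-KO 2 (square), with the range of the 3 WT libraries as a grey bar. Interferon-inducible and MHC class II genes lie far to the right for Mertk-KO 2 alone (1.84 and 2.32), while heat shock genes lie to the right for both libraries (0.52 and 0.36) and atrial genes to the left for both (-1.05 and -1.29).

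Part of the genes of oxidative metabolism rose by small amounts. Of 36 nuclear-encoded genes of respiratory chain complex I, 20 rose and 0 fell, with a median log2 difference of 0.37, beside 3.38% of all genes rising, and 1 of the 36 rose in the TPM table. For complex II 3 of 4 rose, for complex III 5 of 10, for complex IV 2 of 13 and for the ATP synthase 4 of 16. Of 19 genes of the tricarboxylic acid cycle 4 rose and 5 had lower means, and of 29 genes of fatty acid uptake and oxidation 3 rose and 9 had lower means. Ndufb4, an accessory subunit of complex I, had 2121, 2141 and 2109 normalised counts in WT hearts and 2637 and 3011 in Mertk-KO hearts (log2 difference 0.41, SE 0.0863, adjusted p = 0.0215 by limma). The knockout libraries were above the narrow WT range. Leaving out any 1 of the WT libraries took the complex I count to 0, and leaving out Mertk-KO 1 or Mertk-KO 2 took it to 25 and 7. Of the 13 protein-coding genes of the mitochondrial genome 0 passed, and their medians were -0.09 in Mertk-KO 1 and 0.26 in Mertk-KO 2.

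Part of the genes of protein synthesis, protein breakdown and glycolysis also rose. Of 77 cytosolic ribosomal protein genes 30 rose, of 52 mitochondrial ribosomal protein genes 19, of 34 proteasome genes 11 and of 20 glycolysis genes 10, and none of these genes fell. Without WT 3 these counts were all 0 for both kinds of ribosomal protein and for glycolysis, and without Mertk-KO 1 or Mertk-KO 2 the cytosolic ribosomal count was 68 and 10. Rpl18 had 1767, 1712 and 1768 normalised counts in WT hearts against 2489 and 2634 (0.55, adjusted p = 0.0146 by limma). Tpi1, a glycolytic isomerase, had 6754, 6711 and 6849 against 8958 and 8924 (0.40, adjusted p = 0.0189). Both genes had knockout libraries well apart from the WT libraries, as did Gpx4, which removes lipid peroxides, at 4360, 4554 and 4603 against 6570 and 6472 (0.53, adjusted p = 0.012). Of 22 antioxidant genes 6 rose. Among 29 lysosome genes 3 rose, and of 30 genes for autophagy and mitophagy 1 did, Gabarapl2, a protein of the autophagosome membrane, a share near the 3.38% of all genes.

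These lists hold short transcripts, and the difference followed transcript length over all genes. The median length of the longest annotated transcript was 3381 bases for tested genes, 1913 for those that rose and 6189 for those that fell. In the shortest length decile 10.6% rose and 0.79% fell, and the median log2 difference was 0.26. In the longest decile 0.36% rose and 25.2% fell, and the median was -0.34. Across genes, which are not independent replicates, the rank correlation of the difference with length was -0.255 in Mertk-KO 1 and -0.50 in Mertk-KO 2, and that with GC content was 0.491 and 0.173, while WT libraries ranged from -0.0228 to 0.0275 for length. The correlation with length was also negative in the LXR-DKO libraries, at -0.25, -0.374 and -0.142, and it ran from -0.0365 to 0.224 in the Macrophage-depleted libraries, so it was not confined to Mertk-KO hearts. With both trends removed, 278 genes passed (2.00%), 179 rising (1.29%) and 99 falling (0.714%), of which 163 were among the 1287. Then 1 complex I gene rose, with 7 mitochondrial ribosomal, 5 cytosolic ribosomal, 2 proteasome and 1 glycolysis genes, and list medians stayed above 0 at 0.19 for complex I and 0.16 for cytosolic ribosomal proteins, beside 0.04 over all genes. Scaled to nuclear-encoded reads, the median of all genes moved to -0.08, with 235 genes rising and 1082 falling.

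**Figure D5:**
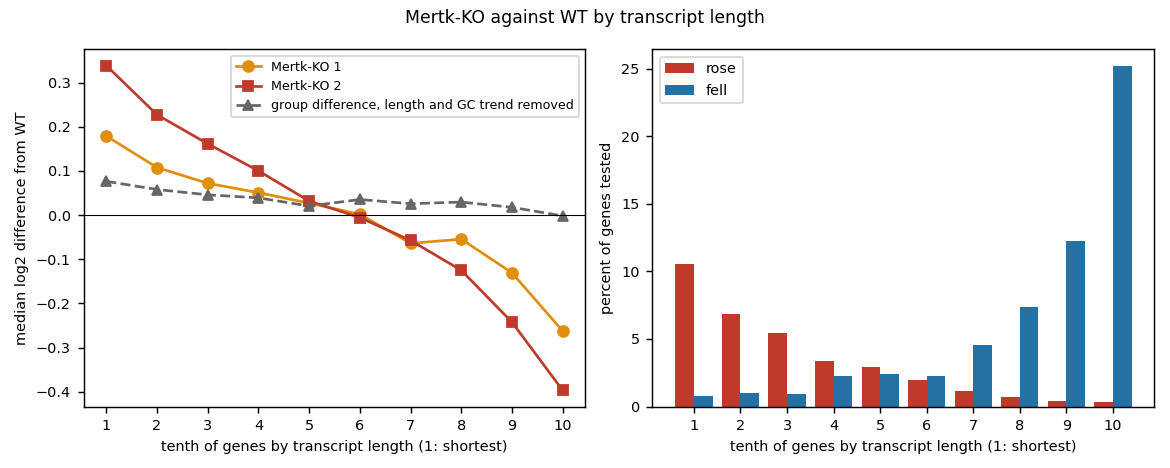
Left, median log2 difference from WT by decile of transcript length, shortest to longest, for Mertk-KO 1, Mertk-KO 2 and the group difference after the length and GC trend was removed. Right, percent of genes in each decile that rose or fell, from 10.6% rising and 0.79% falling in the shortest to 0.36% rising and 25.2% falling in the longest.

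Genes of the contractile apparatus changed in both directions. Of 26 sarcomere and Z-disc genes, Myl3, Tnnc1 and Des rose and Nebl, Neb and Xirp2 fell. Over all genes 3.38% rose and 5.89% fell. Nebl, the cardiac nebulette of the Z-disc, had 5780, 4812 and 5404 normalised counts in WT hearts and 2173 and 3222 in Mertk-KO hearts (log2 difference -1.01, SE 0.153, adjusted p = 0.00973 by limma). Myl3, the ventricular essential light chain, had 52478, 56137 and 56613 against 72392 and 82630 (0.49, adjusted p = 0.0213). Once length and GC content were accounted for, the differences were -0.44 for Nebl (adjusted p = 0.0549) and 0.30 for Myl3 (adjusted p = 0.12). Acta1, the skeletal actin of the fetal heart programme, rose from 2949, 4384 and 2104 normalised counts to 11674 and 6752 (1.56, adjusted p = 0.0182), and kept a rise of 1.36 with the trend removed (adjusted p = 0.0386). It was 1 of 2 fetal programme genes of 9 that rose, beside 3.38% of all genes, the other being Rcan1, an inhibitor of calcineurin. Of the 9, 6 had higher means and 3 lower. Myh7, chosen after its values were seen, was lower by 0.71 (interval from -1.18 to -0.24, adjusted p = 0.0591 by limma). In TPM it had 127, 114 and 115 in WT hearts, 82.2 in Mertk-KO 1 and 124 in Mertk-KO 2.

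Genes of excitation and calcium handling fell in part. Of 20 cardiac ion channel genes 3 fell, Kcnd2, Kcnj3 and Kcnj5, beside 5.89% of all genes falling. The list median was -0.01 in Mertk-KO 1 and -0.41 in Mertk-KO 2. Kcnd2, a channel of the transient outward potassium current, had 521, 487 and 518 normalised counts in WT hearts and 354 and 284 in Mertk-KO hearts (log2 difference -0.68, SE 0.11, adjusted p = 0.0113 by limma). Cacna2d1, an auxiliary subunit of the L-type calcium channel, fell from 3139, 2901 and 3262 to 1469 and 2260 (-0.77, adjusted p = 0.0193), and Itpr1, a calcium release channel, from 942, 816 and 819 to 620 and 509 (-0.61). Of 18 calcium cycling genes Trdn also fell, and S100a1, which encodes a calcium-binding protein, rose. With the length and GC trend removed none of the ion channel or calcium cycling genes fell, and the calcium cycling median went from -0.26 to 0.07. The median transcript lengths of these lists were 5330 and 5277 bases, beside 3381 for all tested genes. For Kcnd2, Cacna2d1 and Itpr1 both knockout libraries lay below every WT library.

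Atrial genes varied widely among the WT hearts and were low in both knockout hearts. Over 16 atrial cardiomyocyte markers the summed level was 30851, 10852 and 6252 normalised counts in WT 1, WT 2 and WT 3, and 5322 and 3626 in Mertk-KO 1 and Mertk-KO 2. Low sums were not confined to Mertk-KO hearts. LXR-DKO libraries 1 to 3 had 6734, 21356 and 4220, and Macrophage-depleted libraries 1 to 3 had 5807, 7922 and 10238. Of 14 tested, 13 had lower means, while 6706 of all 13884 tested genes had higher means. Among the 14, 3 fell (Fgf12, Nr2f2 and Kcnj3, which is also counted among the ion channels), beside 5.89% of all genes. The median log2 difference of the list was -1.16. Myl7, the atrial regulatory light chain chosen after its values were seen, had 3242, 1342 and 505 in WT hearts, then 203 and 22.6 (adjusted p = 0.0766 by limma). Fgf12 had 144, 53.2 and 16.8 in WT hearts, then 3.98 and 1.08 (-4.01, adjusted p = 0.0279), and did not pass in the TPM table (-1.26, adjusted p = 0.15). The order of the WT libraries was the same for the sum, Myl7 and Fgf12.

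The greatest falls were those of 2 genes of hormone signalling with no read in either knockout library. Rxfp1, the relaxin receptor, had 58.5, 39.9 and 12.6 normalised counts in WT hearts and was at 0 in both Mertk-KO libraries, at least 20.7-fold lower when set against a floor of 3 reads over both libraries together. Hamp, which encodes the iron regulator hepcidin, had 10.6, 51.1 and 30.2 and was likewise at 0, at least 17.3-fold lower. Both passed in limma, with adjusted p = 0.0135 for Rxfp1 and 0.014 for Hamp. For Rxfp1 WT 1 was the highest and WT 3 the lowest WT library, as for the atrial sum, and for Hamp WT 2 was the highest. The share of atrial tissue in each heart was not recorded in the labels, and its part in these values was not tested. Cenpf, a centromere protein of dividing cells, fell from 513, 339 and 576 to 95.5 and 169 (-1.86, adjusted p = 0.0127 by limma). It was the 1 of 23 cell cycle genes that passed, beside 9.27% of all genes. In the TPM table its difference was -0.61 (adjusted p = 0.491). Gdap10 fell from 52.1, 72.7 and 87.0 to 10.6 and 12.9 (-2.46).

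Clock genes split the knockout libraries. Nr1d2, the circadian repressor Rev-erb beta, had 1585, 2131 and 2024 normalised counts in WT hearts and 952 and 942 in Mertk-KO hearts (log2 difference -1.003, SE 0.118, adjusted p = 0.00334 by limma), and it passed in 21 of 23 alternatives. Per3 also passed, at 317, 632 and 583 against 319 and 126 (-1.28, adjusted p = 0.0453), although Mertk-KO 1 lay within the WT range. Over the 18 clock genes tested, 2 fell, beside 5.89% of all genes, and the medians were 0.11 in Mertk-KO 1 and -0.84 in Mertk-KO 2. Dbp and Per1, chosen after their values were seen, were on either side of each other in the 2 libraries: Dbp had 555, 1198 and 1374 in WT hearts, then 1049 and 246, and Per1 had 224, 453 and 572, then 1034 and 161. The time of day at which hearts were taken was not used here, and its part in these values was not tested. Klf9, a glucocorticoid-induced factor, fell from 1028, 1337 and 1408 to 839 and 666 (-0.74, adjusted p = 0.0239).

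Few members changed in the lists for other cells and pathways of the heart, where 3.38% of all genes rose and 5.89% fell. Of 14 fibroblast genes Ddr2, a collagen receptor, fell from 567, 679 and 578 normalised counts to 408 and 392 (log2 difference -0.60, adjusted p = 0.0253 by limma, and -0.20 with the length and GC trend removed, adjusted p = 0.398), and of 27 extracellular matrix genes 0 passed. Of 16 endothelial genes Ly6c1 rose, and 0 of 12 genes of pericytes and smooth muscle passed. Neither the 15 liver X receptor targets, nor the 15 genes of cholesterol synthesis and uptake, nor the 19 of apoptosis and necrosis held a gene that passed. Lpl, a liver X receptor target that releases fatty acids from lipoproteins, had 60834, 67450 and 67637 in WT hearts, 65429 in Mertk-KO 1 and 29615 in Mertk-KO 2 (adjusted p = 0.16). Only Mertk-KO 2 was low. Of 17 complement genes Cfb rose, from 22.6, 19.9 and 24.5 to 39.8 and 60.3 (1.11, adjusted p = 0.038, and 0.72 in the TPM table, adjusted p = 0.115), and Cd59a fell. Markers of B cells, neutrophils, adipocytes and red blood cells had 0 genes past the threshold among 9, 6, 9 and 8 tested.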

How the data were processed

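RNA was extracted with Trizol and libraries were made with the Ovation Single Cell kit, per the labels' protocols. Per the submitters' processing notes, the tools were RSEM 1.2.20, kallisto 0.43.1, CASAVA 1.8.2 and cutadapt on the build GRCm38, with no role stated for any of them. The deposited values are a normalised signal per gene, not whole counts: 1 table of 35584 genes holds estimated reads relative to a library's effective size, and another of 33318 genes holds normalised TPM. The reads behind the former were recovered from the smallest value of each library and rescaled to the mean effective size of 15388737; 57.2% to 61.5% of the low values came out whole, so no count model was used. Estimated reads numbered 10938600 to 20722300 per library, and floors cover counting error only.

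Differences were tested with limma 3.58.1 (R 4.3.3) on log2(normalised count + 1), with 1 model of the 4 groups (7 residual degrees of freedom), two-sided, for genes with a mean of at least 10 over the 11 libraries. P-values were adjusted by Benjamini-Hochberg, with a threshold of 0.05, and the method was tested on simulated data with the same spread in every group. In the data the median absolute log2 difference was 0.281 between the Mertk-KO libraries and 0.1255 to 0.137 between WT libraries. The simulation therefore cannot check p-values under unequal spread. An exact permutation test of 2 against 3 libraries cannot give less than 0.1. Differences on this scale understate those of low genes. The members and lists were chosen with earlier results of these data known, so they are described by counts and medians, with no test of a list. Named are the TAM genes, the 12 genes of greatest rise and of greatest fall that pass without overlap, before and after the length and GC trend is removed, up to 3 genes of smallest p per list, genes within 10 Mb of Mertk that pass, and heat shock and immediate early genes that pass; any other gene is marked as picked once its values were known. Alternatives changed the pseudocount, the minimum, the scaling, the table, the groups fitted, the weights and the libraries; weights from voom were added after the data were seen. Transcript lengths are from GENCODE M21 and promoters from RefSeq.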

Additional observations from a re-analysis of the deposited data

How the results depend on the processing

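The count of changed genes in Mertk-KO hearts, 1287 with 36.4% of them rising, moved with the choice of genes, table and spread: 597 with no minimum, 378 in the TPM table, 1 with only these groups fitted, 12 with library weights (16.7% rising) and 278 with the length and GC trend removed (64.4% rising). Scaling to nuclear-encoded reads gave 1317, of which 17.8% rose. Leaving out 1 library gave 70 to 2399, with 15% to 44.8% rising. Mertk kept its direction in all 23 alternatives. Its log2 difference no longer passed with no minimum (-0.71, adjusted p = 0.0733 by limma), in the TPM table (-0.44, 0.117), with only these groups (-0.71, 0.0922), library weights (-0.71, 0.232), the trend removed (-0.63, 0.111) and voom weights (-0.71, 0.0525). Leaving out 1 library, it ranged from -0.83 to -0.60. The causes were not tested.

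Whether the replicate numbers mark pairs is not known. Deviations of libraries 1 and 2 correlated at 0.06 and 0.00678 between the groups. With 2 Mertk-KO libraries the deviations from their mean mirror each other, so these values cannot decide it. With a replicate block 391 genes passed (22.5% rising), and Mertk did not (-0.78, adjusted p = 0.0606 by limma).

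Of the genes named, Hypk reversed in the TPM table (0.71). With the trend removed, Hspa4l (0.26), Pros1 (0.0197) and Gas6 (-0.0566) reversed. Axl reversed with nuclear scaling (-0.0183) and in the TPM table (-0.13). Leaving out 1 library reversed several named genes, none of which passed as reported. The range was -0.52 to 3.21 for Nr4a3, -0.0155 to 0.19 for Gas6, -0.0723 to 0.16 for Axl and -1.27 to 1.41 for Per1. It was -0.10 to 4.11 for Gbp6, -1.14 to 0.0044 for Lpl and -1.98 to 0.11 for Dbp. The extremes came without Mertk-KO 1 or without Mertk-KO 2, and Axl and Per1 also reversed without WT 1 (-0.0228 and -0.32). Iigp1, Gbp3 and Gbp4 had group differences of 1.45, 1.15 and 1.13. They too reversed without Mertk-KO 2, since Mertk-KO 1 lay at 0.401-fold, 0.75-fold and 0.751-fold the WT mean.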

Other observations

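Predicted genes apart, and on the log2(normalised count + 1) scale, 5 genes were more than 4-fold above every WT library in Mertk-KO 1 alone and 39 in Mertk-KO 2 alone, with 0 in both. In the other direction 40 genes were more than 4-fold below every WT library in Mertk-KO 1 and 16 in Mertk-KO 2. On that scale 2 genes, Rxfp1 and Hamp, were this low in both; Fgf12 falls short through the added 1, its normalised counts being 144, 53.2 and 16.8 in WT hearts against 3.98 and 1.08. By chromosome, 53 of 652 tested genes of chromosome 17 rose (8.13%) and 54 of 433 of the X chromosome fell (12.5%), beside 3.38% and 5.89% over all genes tested. These shares are values with no test, and neighbouring genes are not independent.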
